A study of Rattus norvegicus with 8 samples.

Results

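Enzymes that write, remove or read histone marks, together with the motors that slide nucleosomes, were examined across outflow veins of rat arteriovenous fistulas (AVFs). Genes were taken by name: every gene whose symbol begins with Kmt, Kdm, Chd, Arid, Setd, Nsd or Kat and a digit, or with Smarc, plus Ep300 and Crebbp, and without Kdm5c and Kdm5d. This gave 77 of the 32623 listed genes, of which 74 had at least 80 reads in total over the 8 libraries. The other 3 were Chd5 with 14 reads, Arid3c with 18 reads and Kdm4d with 0 reads, and they were not tested. Among tested members Arid4b had the fewest reads, 416. The family was picked after Arid1b, a subunit of the SWI/SNF remodeler, had been seen lower with BAPN. Arid1b is therefore given as values without a test. All counts below are over the 73 other tested members unless another set is named.

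All rats were Sprague Dawley rats whose epigastric vein had been joined to the femoral artery, and each carried a bilayer nanofiber scaffold of PLA and PLGA around the outflow vein until tissue was taken at 21 days. In the BAPN group (3 females and 1 male) the scaffold was loaded with β-aminopropionitrile, an inhibitor of lysyl oxidase, the enzyme that crosslinks collagen and elastin fibers. In the Vehicle group (2 females and 2 males) it carried no drug. The age of the animals was not given in the sources used here. RNA came from pieces of the whole vein, so fewer cells of a type and less RNA per cell cannot be told apart in any value below.

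DNA in the nucleus is wound around histones, and enzymes that methylate or acetylate histone tails change which genes can be read. Methylation of H3K4 (lysine 4 of histone H3) and acetylation mark active promoters and enhancers, and demethylases and deacetylases take marks away. Remodelers of the SWI/SNF, ISWI and CHD families use ATP to move or evict nucleosomes. In the vessel wall, smooth muscle cells gain and lose their contractile genes as they adapt to flow, and acetyltransferases and SWI/SNF motors are known coactivators of that program.

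Total counts separated the groups, with 45039451 to 52241007 reads per BAPN library and 19548203 to 22442050 reads per Vehicle library (exact two-sided permutation test over 70 arrangements, p = 0.0286, the smallest p that 4 against 4 allow). Depth and group therefore cannot be told apart. After every library was thinned to the smallest total, the same 12 members were called. Thinning evens out only the number of reads, so other differences that came with depth were not tested. Reads on mitochondrial genes made up 4.62 to 7.8% of the BAPN libraries and 4.46 to 5.41% of the Vehicle libraries, and reads on ribosomal protein genes 2.81 to 4.17% and 1.92 to 2.57%. BAPN replicate 3 had the highest share of both. The smooth muscle markers Myh11 and Acta2 were read in all libraries, from 276 to 1522 CPM (counts per 1e6 reads, TMM-scaled) and from 374.3 to 1802 CPM.

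Of the 73 members, 51 (69.9%) had a lower fitted level with BAPN and 22 a higher one, while 48.5% of all genes tested had a lower one. The same 48.5% stands beside the counts of lower fitted levels by role below. At an FDR below 0.05 (edgeR quasi-likelihood test, adjusted over 14930 genes), 11 members were called lower and 1 higher, while 61 were not called. Over all genes tested, 6.56% were called lower and 5.57% higher. Since the family was chosen from this same contrast, nothing is read from the difference between these shares. The median log2 fold change was -0.15 over the members and 0.02 over all genes tested. Every BAPN library lay below every Vehicle library in 23 members (10.3% of all genes) and above in 4 members (11.4% of all genes). DESeq2 called 22 members lower and 2 higher, against 12.5% and 10.2% of all genes.

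**Figure D1:**
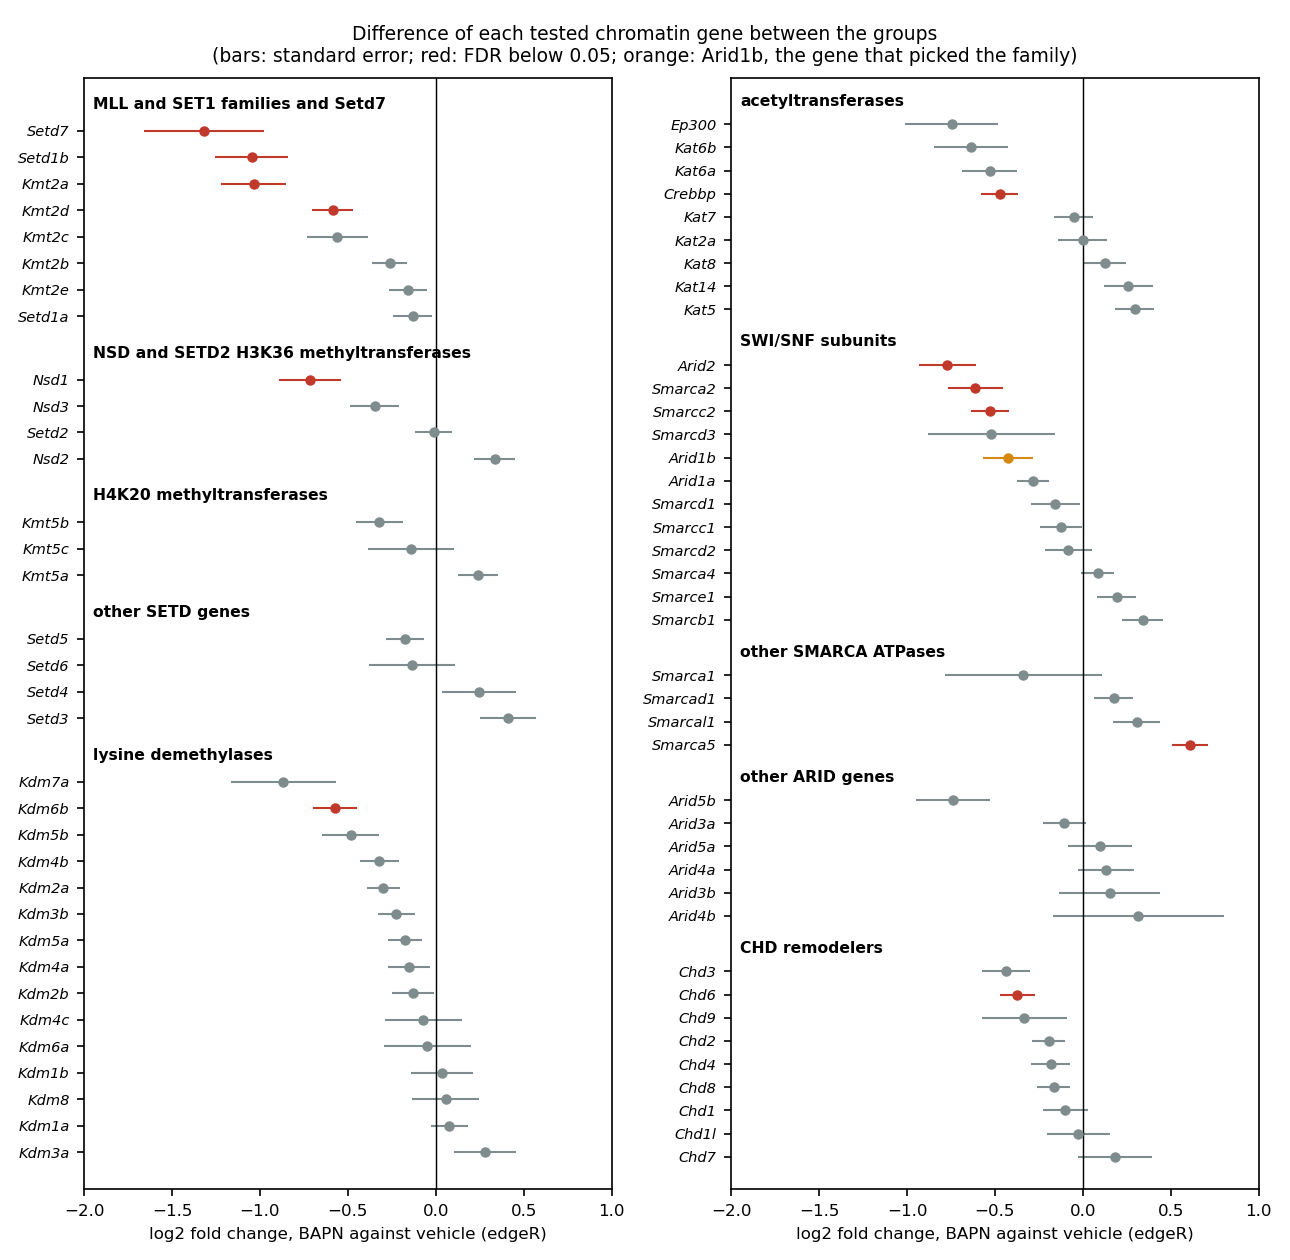
Log2 fold change of each tested chromatin gene, BAPN against Vehicle, by role (point: edgeR estimate, bar: standard error from limma voom, red: FDR below 0.05, orange: Arid1b). Points of the MLL and SET1 families and Setd7 all lie left of 0, with a median of -0.57, and Smarca5 is the 1 red point on the right, at 0.61.

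Arid1b, the DNA-binding subunit that alternates with Arid1a in the canonical SWI/SNF complex, stood at 60.7, 54.6, 41.3 and 55.9 CPM in BAPN replicates 1 to 4 and at 80.8, 67.4, 61.6 and 75.4 CPM in Vehicle replicates 1 to 4. The groups did not overlap, but the highest BAPN library and the lowest Vehicle library lay within 1 CPM of each other. The group means were 53.1 ± 8.29 CPM and 71.3 ± 8.47 CPM (SD, n = 4 rats each), a log2 fold change of -0.42 (SE 0.14). This difference picked the family and is a description.

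The MLL and SET1 families and Setd7, which hold the H3K4 methyltransferases of the set and Kmt2e, were the role in which the most members were called: all 8 had a lower fitted level and 4 fell past the threshold, namely Kmt2a, Kmt2d, Setd1b and Setd7. Kmt2a (MLL1, which keeps developmental genes active) was read at 33.04, 28.8, 18.6 and 32.1 CPM in BAPN replicates 1 to 4 and at 68.3, 54.4, 51.1 and 57.0 CPM in Vehicle replicates 1 to 4. The groups were far apart, and the mean fell 2.05-fold, by 1.04 on the log2 scale (SE 0.19, edgeR FDR = 0.0149). Leaving out any 1 library did not end the call of Kmt2a, nor that of Smarca5, whereas each of the 10 other calls was lost in at least 2 of the 8 fits made that way.

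Setd1b, the catalytic subunit of a SET1 complex that trimethylates H3K4 at promoters, was read at 29.4, 19.5, 13.6 and 17.9 CPM with BAPN and at 43.3, 37.2, 42.5 and 43.3 CPM with Vehicle. The Vehicle libraries were close together apart from replicate 2, and none reached down to the BAPN range. The log2 fold change was -1.05 (SE 0.21, edgeR FDR = 0.0198), a 2.07-fold lower mean. Without BAPN replicate 4 the FDR was 0.051 and without Vehicle replicate 1 it was 0.0606.

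Setd7 had the largest difference of the family. It encodes an enzyme that adds a single methyl group to H3K4 and also methylates proteins other than histones. Levels were 21.4, 19.9, 9.34 and 24.2 CPM in BAPN replicates 1 to 4 and 57.4, 38.6, 26.9 and 64.2 CPM in Vehicle replicates 1 to 4. Both groups were widely spread, but the lowest Vehicle library was still above the highest BAPN library. The log2 fold change was -1.32 (SE 0.34, edgeR FDR = 0.0345), and the call was lost without any 1 of the BAPN replicates and without Vehicle replicate 1 or 4, with an FDR of 0.0556 to 0.0924.

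Kmt2d (MLL4, which methylates H3K4 at enhancers) was read at 115.4, 111.4, 111.2 and 117.4 CPM with BAPN and at 206.1, 156.5, 158.6 and 161.9 CPM with Vehicle. BAPN libraries were nearly equal, and Vehicle replicate 1 stood above the other Vehicle libraries. The mean fell 1.5-fold (log2 fold change -0.58, SE 0.12, edgeR FDR = 0.0202), and the FDR was 0.0563 without Vehicle replicate 1 and 0.0552 without BAPN replicate 3. Its close relative Kmt2c did not pass the edgeR test, with a log2 fold change of -0.56 (FDR = 0.0619) and no overlap between the groups, and was called lower by DESeq2 (FDR = 0.023). Kmt2e, an MLL family protein without methyltransferase activity, ranged from 154.3 to 176.5 CPM with BAPN and from 172.7 to 205.3 CPM with Vehicle, and was not called (log2 fold change -0.16, SE 0.11, edgeR FDR = 0.359). Kmt2b and Setd1a, the nearest relatives of Kmt2a and Setd1b, were not called either, with log2 fold changes of -0.26 and -0.13.

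**Figure D2:**
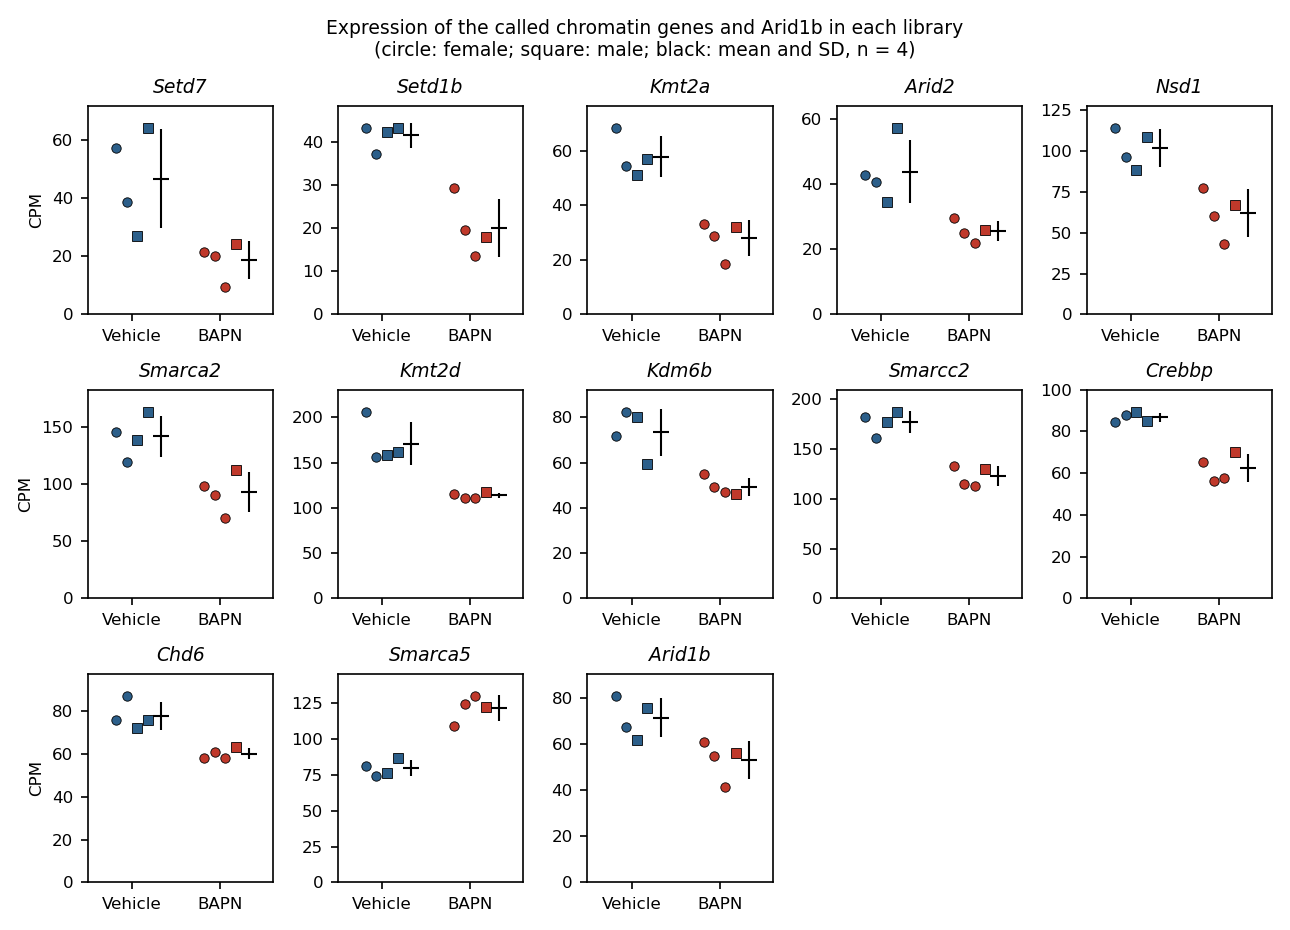
CPM of the 12 called members and Arid1b in each library (vertical axis from 0; circle: female, square: male; black: mean and SD, n = 4). In each of the 13 panels the BAPN and Vehicle libraries do not overlap, and Smarca5 is the 1 gene with BAPN above Vehicle.

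Promoter sequences were looked up for the members in the RefSeq table of rat assembly GRCr8, which gives 250 bases before and 50 after each start and held 64 of the 77 members. The GC box, GGGCGG on either strand, which is the core of the site read by Sp1-type factors, was present in 47 of these 64 promoters (73.4%), against 34.9% of the 27457 promoters in the table. The members' promoters held a median of 25.5 CpG pairs per window, against 7 over all promoters. Their median GC content was 63.5%, against 52.3%. The shares over all promoters are not matched to the members for GC content or for being read in the vein. TATAAA occurred in 3.12% of them and in 14.3% of all promoters, the ETS core CGGAAG in 29.7% and 17.4%, and CCAAT in 39.1% and 37.7%. All 7 members called lower that were in the table held a GC box, and so did Smarca5, the member called higher. CpG-rich promoters without a TATA box are typical of genes read in most cells. The motif was thus shared by genes that fell and by the gene that rose, and a match is a description of the letters, not a bound site.

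The 3 promoters below show this for 2 members that fell and for the member that rose, with each GC box in capitals. Setd1b lies at chr12:39081822-39082121 on the minus strand with 3 GC boxes, Arid2 at chr7:129326121-129326420 on the plus strand with 2 (the first of 2 listed starts), and Smarca5 at chr19:44176045-44176344 on the plus strand with 3. Each is written 5′ to 3′ on the strand of its gene. In the Smarca5 window the first GC box lies before an atg (atgtcgtccacg) and the other 2 lie after it. Read in steps of 3 letters from that atg, the window holds no stop codon (taa, tag or tga) up to its end. Whether these 2 boxes are protein-coding letters rather than promoter letters was not tested.
Setd1b: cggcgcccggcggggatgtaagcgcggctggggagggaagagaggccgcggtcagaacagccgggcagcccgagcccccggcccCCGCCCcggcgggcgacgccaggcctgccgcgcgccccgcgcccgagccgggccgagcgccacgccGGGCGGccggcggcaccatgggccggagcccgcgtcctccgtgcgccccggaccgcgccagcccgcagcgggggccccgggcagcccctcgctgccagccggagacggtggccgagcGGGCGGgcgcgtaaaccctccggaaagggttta
Arid2: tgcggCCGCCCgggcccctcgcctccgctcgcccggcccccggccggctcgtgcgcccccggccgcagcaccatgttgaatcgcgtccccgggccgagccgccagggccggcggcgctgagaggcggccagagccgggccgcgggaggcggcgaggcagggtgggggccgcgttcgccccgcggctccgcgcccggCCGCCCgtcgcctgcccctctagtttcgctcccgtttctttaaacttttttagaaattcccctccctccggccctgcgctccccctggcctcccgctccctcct
Smarca5: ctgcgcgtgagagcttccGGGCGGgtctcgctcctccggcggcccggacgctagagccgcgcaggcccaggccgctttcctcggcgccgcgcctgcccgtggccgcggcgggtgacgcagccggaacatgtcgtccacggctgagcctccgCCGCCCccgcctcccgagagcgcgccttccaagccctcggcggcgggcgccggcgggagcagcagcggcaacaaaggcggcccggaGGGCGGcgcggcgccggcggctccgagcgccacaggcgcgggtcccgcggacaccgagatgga

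Among methyltransferases of H3K36, a mark laid down along transcribed genes and between them, 1 of 4 fell. Nsd1, which dimethylates H3K36, was read at 77.8, 60.5, 42.9 and 67.2 CPM in BAPN replicates 1 to 4 and at 114.3, 96.5, 88.6 and 108.8 CPM in Vehicle replicates 1 to 4. The groups did not overlap, and the log2 fold change was -0.72 (SE 0.18, edgeR FDR = 0.0319). The call was lost without BAPN replicate 2, 3 or 4 and without Vehicle replicate 1 or 4 (edgeR FDR 0.0564 to 0.0882). Setd2, which trimethylates H3K36 behind the polymerase, had group means of 113.0 ± 4.58 CPM in BAPN rats and 113.9 ± 10.6 CPM in Vehicle rats (SD, 4 rats each), and the sign of its small difference (log2 fold change -0.01, SE 0.10) changed with the filter, the covariate and the libraries used. Nsd2 was read above the Vehicle range in all 4 BAPN libraries, 42.8 to 46.3 CPM against 28.8 to 38.5 CPM, but was not called (log2 fold change 0.34 with an edgeR FDR of 0.0873).

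None of the 3 methyltransferases of H4K20 and none of the 4 other SETD genes were called by edgeR or DESeq2. In each of these roles 1 gene had an unadjusted edgeR p below 0.05. Kmt5b, which adds the later methyl groups to H4K20, ranged from 48.7 to 60.1 CPM with BAPN and from 58.8 to 84.3 CPM with Vehicle (log2 fold change -0.32, SE 0.13, unadjusted p = 0.0364, edgeR FDR = 0.131). Setd3, known for methylating a histidine of actin, ranged from 62.3 to 95.6 CPM with BAPN and from 47.8 to 66.3 CPM with Vehicle (log2 fold change 0.41, SE 0.16, unadjusted p = 0.0288, edgeR FDR = 0.115). The groups overlapped in both genes. Setd5, a SET domain protein of the same role, had a log2 fold change of -0.17 (SE 0.11, edgeR FDR = 0.295).

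Of the 15 lysine demethylases tested, 11 had a lower fitted level, 1 fell past the threshold and none rose. That 1 was Kdm6b (JMJD3), which removes the repressive methylation of H3K27 and is known as an inflammation-induced gene. It was read at 55.1, 49.2, 46.9 and 46.2 CPM with BAPN and at 71.6, 82.3, 79.9 and 59.5 CPM with Vehicle. The BAPN libraries were tight and all below the lowest Vehicle library, and the log2 fold change was -0.57 (SE 0.13, edgeR FDR = 0.0245). The call was lost without BAPN replicate 3 or 4 and without Vehicle replicate 1 or 3 (edgeR FDR 0.054 to 0.0663).

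Other demethylases stayed above the threshold in edgeR. Kdm7a, which acts on H3K9 and H3K27, had the largest difference of the role but overlapping groups, 5.15 to 13.8 CPM with BAPN and 13.5 to 22.4 CPM with Vehicle (log2 fold change -0.87, SE 0.30, edgeR FDR = 0.0749). Kdm2a, an H3K36 demethylase that binds unmethylated CpG, ranged from 93.8 to 105.2 CPM with BAPN and from 116.8 to 129.0 CPM with Vehicle (log2 fold change -0.30, SE 0.09, edgeR FDR = 0.0649). DESeq2 called 5 of the 15 lower, Kdm2a and Kdm7a among them, with a DESeq2 FDR of 0.00511 for Kdm2a and 0.0266 for Kdm7a.

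Of the 9 acetyltransferases, 6 had a lower fitted level and Crebbp fell, while DESeq2 called 4 lower: Crebbp, Ep300, Kat6a and Kat6b. Crebbp (CBP), which acetylates H3K27 and bridges transcription factors to the polymerase, was read at 65.6, 56.3, 57.9 and 70.2 CPM in BAPN replicates 1 to 4 and at 84.7, 87.8, 89.4 and 85.1 CPM in Vehicle replicates 1 to 4. The Vehicle libraries lay within 5 CPM of each other and clear of the BAPN range, and the log2 fold change was -0.47 (SE 0.10, edgeR FDR = 0.0237). Without BAPN replicate 2 or 3 and without Vehicle replicate 1 or 3 the edgeR FDR was 0.0501 to 0.0654. Its paralog Ep300 (p300) had a larger but more variable difference and overlapping groups, 7.57 to 18.5 CPM against 16.8 to 27.0 CPM (log2 fold change -0.75, SE 0.27, edgeR FDR = 0.0827, DESeq2 FDR = 0.0363). Kat6a (MOZ), an acetyltransferase of the MYST type, was just short of a call by edgeR, at 56.1 to 93.5 CPM against 97.5 to 120.3 CPM (log2 fold change -0.53, SE 0.16, edgeR FDR = 0.0522, DESeq2 FDR = 0.0157). Kat5 (TIP60), another MYST enzyme, was read at 36.2 to 40.0 CPM with BAPN and at 25.9 to 32.9 CPM with Vehicle, and was not called (log2 fold change 0.29 with an edgeR FDR of 0.11).

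Apart from Arid1b, 11 SWI/SNF subunits were tested, of which 8 had a lower fitted level and 3 fell: Arid2, Smarca2 and Smarcc2. Arid2 marks the PBAF form of the complex. It was read at 29.6, 25.0, 21.9 and 26.0 CPM with BAPN and at 42.7, 40.6, 34.5 and 57.2 CPM with Vehicle. All BAPN libraries were below all Vehicle libraries, and the mean fell 1.71-fold (log2 fold change -0.77, SE 0.16, edgeR FDR = 0.0237). Without BAPN replicate 2, 3 or 4 or Vehicle replicate 1 the edgeR FDR was 0.0505 to 0.0654.

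Smarca2 (BRM) is 1 of the 2 alternative motors of the complex. It was read at 98.4, 90.5, 70.1 and 112.1 CPM in BAPN replicates 1 to 4 and at 145.9, 119.3, 138.7 and 163.1 CPM in Vehicle replicates 1 to 4. The nearest libraries, BAPN replicate 4 and Vehicle replicate 2, were 112.1 and 119.3 CPM, and the log2 fold change was -0.61 (SE 0.16, edgeR FDR = 0.0375). It was not called without BAPN replicate 1, 2 or 3 or without Vehicle replicate 1, 3 or 4 (edgeR FDR 0.0642 to 0.0937). The alternative motor Smarca4 (BRG1) was not called and had the opposite sign, with 127.9 to 142.7 CPM against 122.6 to 130.9 CPM (log2 fold change 0.08, SE 0.09, edgeR FDR = 0.571).

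Smarcc2 (BAF170), a scaffold subunit, was read at 132.5, 115.0, 112.9 and 130.1 CPM with BAPN and at 182.2, 161.2, 176.6 and 187.2 CPM with Vehicle. The gap between the groups was wider than the range of either, and the log2 fold change was -0.53 (SE 0.11, edgeR FDR = 0.0212). The call was lost without BAPN replicate 3 and without Vehicle replicate 1 (edgeR FDR 0.0573 and 0.0655). Arid1a, the partner of Arid1b in the canonical complex, was read at 131.5 to 143.7 CPM with BAPN and at 165.0 to 170.7 CPM with Vehicle, without overlap. Its log2 fold change of -0.29 (SE 0.09) had an edgeR FDR of 0.0737 and a DESeq2 FDR of 0.00111. Smarcb1, a core subunit, was read higher in all 4 BAPN libraries, 40.9 to 51.7 CPM against 32.8 to 38.9 CPM, and was not called by edgeR (log2 fold change 0.34, FDR = 0.0776) but was by DESeq2 (FDR = 0.0447).

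Smarca5 (SNF2H), the motor of most ISWI remodelers, was the 1 member that rose. It was read at 109.2, 124.5, 130.2 and 122.6 CPM in BAPN replicates 1 to 4 and at 81.3, 74.4, 76.4 and 86.6 CPM in Vehicle replicates 1 to 4. The lowest BAPN library was above the highest Vehicle library, and the mean rose 1.53-fold, by 0.61 on the log2 scale (SE 0.10, edgeR FDR = 0.0121). Smarca1 (SNF2L), the other ISWI motor, was read at 2.62 to 11.01 CPM over all libraries with overlapping groups and was not called.

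None of the 6 tested genes of the ARID3, ARID4 and ARID5 groups were called by edgeR, and 1 was by DESeq2. Arid5b, a cofactor in fat and smooth muscle cell differentiation, was that gene and the 1 with an unadjusted edgeR p below 0.05, at 18.4 to 31.9 CPM with BAPN and 32.7 to 58.7 CPM with Vehicle (log2 fold change -0.74, SE 0.21, edgeR FDR = 0.0505). Arid5b was called with RLE, upper-quartile or library-total scaling and with the base mean or filterByExpr filter (edgeR FDR 0.0424 to 0.0499), and Kat6a with limma voom, upper-quartile or library-total scaling or the base mean filter (FDR 0.0409 to 0.0487). Arid4a, which binds the retinoblastoma protein, was not called, and its log2 fold change of 0.13 (SE 0.16) turned negative among females alone and without BAPN replicate 4. Arid5b and Kat6a were the nearest members outside the threshold, and Chd6, at an edgeR FDR of 0.0392, was the nearest inside.

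Of the 9 CHD remodelers, 8 had a lower fitted level and 1 fell. Chd6 was read at 57.9, 60.6, 58.2 and 63.4 CPM with BAPN and at 75.9, 87.0, 72.0 and 75.8 CPM with Vehicle. The groups did not overlap, and the log2 fold change was -0.37 (SE 0.10, edgeR FDR = 0.0392). This was the least stable call, since it was lost in each of the 8 fits that left out 1 library (FDR 0.0531 to 0.0924). Chd4, the main motor of the NuRD deacetylase complex, ranged from 294.8 to 340.9 CPM with BAPN and from 334.1 to 382.4 CPM with Vehicle (log2 fold change -0.18, SE 0.11, edgeR FDR = 0.313). Its paralog Chd3 was read at 81.3 to 98.4 CPM against 100.1 to 148.8 CPM, with no overlap (log2 fold change -0.44, SE 0.14, edgeR FDR = 0.0632), and was called lower by DESeq2 (FDR = 0.0211).

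Ratios of related genes within a library do not depend on how libraries are scaled. They were chosen after the levels were seen, are ratios of raw counts without regard to gene length, and are given as a description. Smarca2 reads per Smarca4 read were 0.69, 0.695, 0.548 and 0.807 in BAPN replicates 1 to 4 and 1.11, 0.919, 1.1 and 1.33 in Vehicle replicates 1 to 4. Every BAPN library had a lower ratio of BRM to BRG1 reads than every Vehicle library. The ratio of Smarcc2 to Smarcc1 was 1.69 to 2.13 with BAPN and 2.22 to 2.76 with Vehicle. That of Kmt2a to Kmt2b was 0.378 to 0.629 and 0.81 to 1.06, and that of Setd1b to Setd1a was 0.239 to 0.521 and 0.58 to 0.755. That of Nsd1 to Nsd2 was 0.926 to 1.7 with BAPN and 2.55 to 3.17 with Vehicle. In these 5 pairs the groups did not overlap. Ep300 to Crebbp (0.131 to 0.283 against 0.188 to 0.319), Arid1b to Arid1a (0.301 to 0.425 against 0.372 to 0.473) and Smarca5 to Smarca1 (20.5 to 42.6 against 7.86 to 29.1) overlapped.

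**Figure D3:**
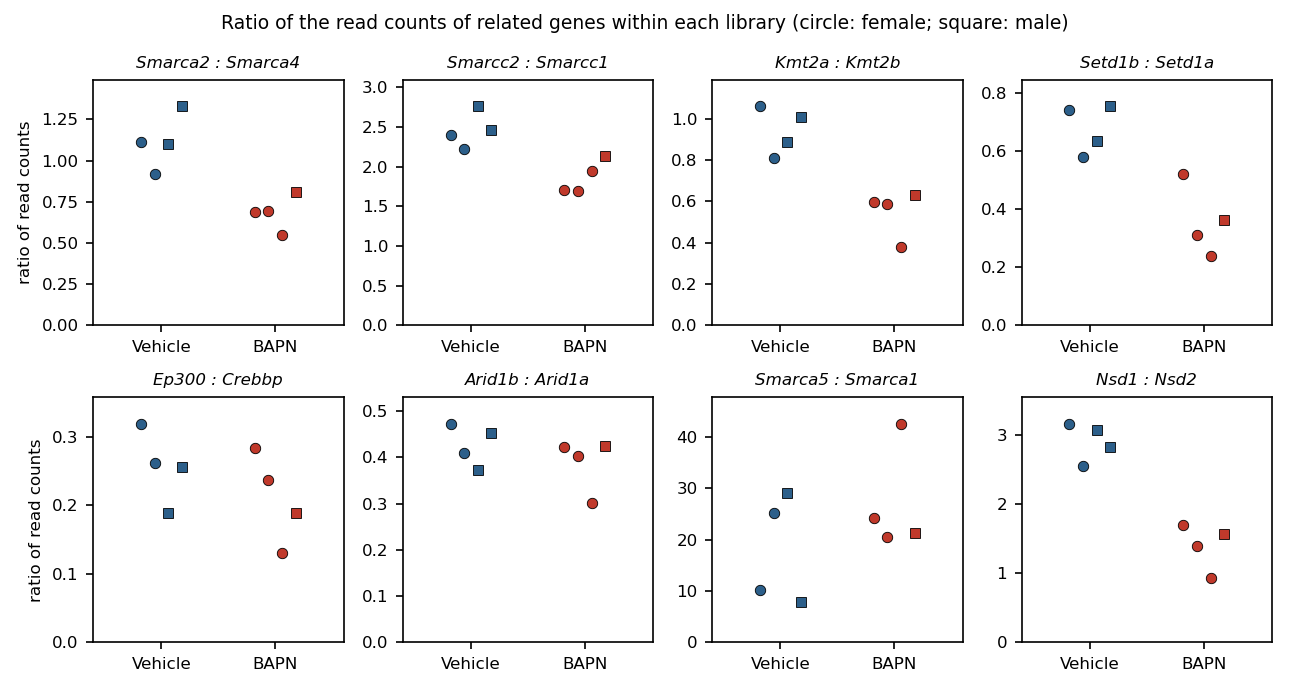
Ratio of the read counts of related members within each library (vertical axis from 0, no unit; circle: female, square: male). In 5 of the 8 panels the BAPN libraries lie below all Vehicle libraries, and in the panels of Ep300 to Crebbp, Arid1b to Arid1a and Smarca5 to Smarca1 the groups overlap.

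The median coefficient of variation between rats of a group was 10.9% with BAPN and 12.7% with Vehicle over the 74 tested members, Arid1b included. Over all genes tested it was 18.7% and 22.1%, but those genes were not matched to the members for read number. Library by library, the median deviation of the 73 members from their own mean over all libraries was -0.01, -0.08, -0.13 and -0.09 in BAPN replicates 1 to 4 and 0.12, 0.05, 0.13 and 0.09 in Vehicle replicates 1 to 4 (log2 CPM). BAPN replicate 3 was the lowest BAPN library in 35 of the 73 members, and this was the library with the highest mitochondrial share, 7.8%. Without it, 2 members were called lower and 1 higher, and 3.13% of all genes were called in either direction, against 12.1% with all libraries. Without Vehicle replicate 1 the counts were 1 lower and 1 higher, and 10 of the 12 calls were lost, while 2.22% of all genes were called. All 77 members of the rule, Arid1b and the untested ones included, took 0.378 to 0.444% of all reads in the BAPN libraries. In the Vehicle libraries the share was 0.475 to 0.508%.

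The sexes were unevenly spread over the groups. With sex as a covariate the edgeR fit called 4 members lower, Kdm6b, Kmt2a, Kmt2d and Setd1b, and 1 higher, Smarca5, while 4.68% of all genes were called (2.63% lower). The 7 members whose calls were lost had log2 fold changes of -1.29 to -0.38 in that fit and of -1.32 to -0.37 without the covariate. Among females alone, 3 against 2, edgeR called 0 members in either direction at an FDR below 0.05, with 95 genes (0.636%) called in all. At an unadjusted p below 0.05 there were 22 members, and the share of all genes at that level is not given here. The fitted levels of 47 members were lower with BAPN among the females, against 51 over both sexes. Over all genes the median log2 fold change among the females was 0.018.

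Cell type markers moved with the groups as well. The summed level of 6 endothelial markers was 468.2 to 602.2 CPM with BAPN and 745.4 to 1476 CPM with Vehicle, and 2 of the 6 fell. Of 8 smooth muscle markers 5 fell, with sums of 1704 to 4441 CPM against 3314 to 6254 CPM. The sum of 8 macrophage markers was 28030 to 41420 CPM with BAPN and 5901 to 22780 CPM with Vehicle, most of it from Lyz2. Of these 8, edgeR called 0 (3 at an unadjusted p below 0.05) and DESeq2 called 2. T cell markers summed to 376.6 to 464.9 CPM and 301.4 to 514.8 CPM, most of it from Cd4, and 2 of 8 rose (DESeq2 called 3). Cd8a was read at 16.03 to 24.1 CPM with BAPN and at 3.61 to 12.1 CPM with Vehicle. B and plasma cell markers summed to 155.4, 195.6, 220.6 and 6.876 CPM in BAPN replicates 1 to 4 and to 11.91 to 37.14 CPM with Vehicle, so that 3 BAPN libraries were above all Vehicle libraries and BAPN replicate 4 below them. Of these 7 markers 1 rose, and DESeq2 called 5. The sums of the fibroblast, neutrophil, adipocyte, skeletal muscle, Schwann cell and epidermal lists overlapped between the groups. In these lists edgeR called no gene, while DESeq2 called 3 of 7 fibroblast and 4 of 6 adipocyte markers, all lower with BAPN, the same numbers as at an unadjusted edgeR p below 0.05. Most of the adipocyte sum came from Fabp4 (1013 to 2934 CPM with BAPN, 408.3 to 1566 CPM with Vehicle), while Plin1 was read at 4.96 to 10.9 CPM and 4.49 to 60.6 CPM. No library read 0 for any smooth muscle, endothelial or macrophage marker. The part of cell type composition in the differences of the members was not tested.

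Genes that work in the same complexes or reactions but are not taken by the name rule were read from hand-written lists. Of 166 such genes tested, 19 fell, 7 rose and 140 were not called, and the median log2 fold change was -0.09. Those called were 11.4% lower and 4.22% higher, beside 6.56% and 5.57% of all genes tested. In the SWI/SNF list, Bicral, a subunit of the form without ARID proteins, fell by 0.71 on the log2 scale (edgeR FDR = 0.0228). Brd7, a PBAF reader, rose by 0.43 (edgeR FDR = 0.0269). Among the core partners of the H3K4 methyltransferases 2 of 12 rose and none fell. Dpy30 rose by 0.65 (edgeR FDR = 0.0264) and Wdr5 by 0.43 on the log2 scale (edgeR FDR = 0.0443). The other 10 were not called, 6 of the 12 had a lower fitted level, and the median log2 fold change of this list was 0.02. Without Vehicle replicate 1 neither Brd7 nor Wdr5 was called. With sex as a covariate, 1 of all partner genes was called higher.

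In the Polycomb list, whose complexes lay down repressive marks, 5 of 26 fell and 1 rose. Cbx6, a chromobox subunit of Polycomb repressive complexes, was read at 31.2, 32.8, 19.9 and 23.2 CPM with BAPN and at 73.1, 48.5, 65.01 and 108.9 CPM with Vehicle. The groups did not overlap, and Cbx6 fell by 1.46 on the log2 scale (SE 0.25, edgeR FDR = 0.0137). Leaving out any 1 library did not end this call. Eed, a core subunit of the H3K27 methyltransferase complex, rose by 0.63 (edgeR FDR = 0.0255). The call of Eed was lost without Vehicle replicate 1. Of 17 deacetylases only Hdac7, known from endothelial cells, was called. It fell by 1.01 on the log2 scale (edgeR FDR = 0.0186), and the FDR was 0.0606 without Vehicle replicate 1.

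Of 14 partners of the deacetylase complexes 2 fell and none rose. In the remaining 6 lists 10 genes fell and 3 rose. Of 11 DNA methylation genes 2 fell, Tet1 by 1.68 and Tet3 by 1.18 on the log2 scale, both of which oxidize methylated cytosine. Tet1 was read at low levels, 0.345 to 0.85 CPM with BAPN and 1.82 to 2.41 CPM with Vehicle, with 300 reads in total. Of 10 BET and Mediator genes 3 fell, among them Med14, a Mediator backbone subunit, by 0.69 (edgeR FDR = 0.0158). Of 17 ISWI, INO80 and other remodeler genes 3 fell and 2 rose. Rad54l2, an androgen receptor coregulator, fell by 0.87 on the log2 scale (edgeR FDR = 0.048). Baz1a, the partner of the Smarca5 motor in the ACF complex, rose by 0.56 (edgeR FDR = 0.0176). The call of Baz1a was lost without Vehicle replicate 1. Ehmt2 (G9a), which methylates H3K9, fell by 0.36 (edgeR FDR = 0.0423), Phf2, an H3K9 demethylase, fell by 0.39 (edgeR FDR = 0.0405), and Hat1, which acetylates newly made histone H4, rose by 0.52 (edgeR FDR = 0.0304). Leaving out 1 library ended neither the call of Cbx6 nor that of Med14. The calls of Bicral (lost without BAPN replicate 2 or 3 or Vehicle replicate 1, edgeR FDR up to 0.0698) and Hdac7 (lost without BAPN replicate 3 or Vehicle replicate 1) were kept in 5 and 6 of the 8 fits. Dpy30 was lost without BAPN replicate 3 or 4 or Vehicle replicate 1, 3 or 4 (edgeR FDR up to 0.0744), and Hat1 in all fits but those without BAPN replicate 2 or Vehicle replicate 2 (up to 0.0871). Phf2 and Tet1 were kept only without Vehicle replicate 2 (lost with an edgeR FDR up to 0.1 and 0.0878), Rad54l2 only without BAPN replicate 1 (up to 0.111), and Ehmt2 in none of the 8 fits (up to 0.104). With sex as a covariate the calls of Dpy30, Hat1, Phf2, Tet1, Rad54l2 and Ehmt2 were lost as well (edgeR FDR 0.0565 to 0.106), with log2 fold changes of 0.62, 0.50, -0.35, -1.70, -0.83 and -0.36 in that order.

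Sex itself was compared next, with treatment in the model, since the rule did not use it apart from leaving out Kdm5c and Kdm5d. No member differed between 5 females and 3 males at an edgeR FDR below 0.05, against 0.0067% of all genes tested (1 gene). At an unadjusted p below 0.05 there were 2 members, Kdm6a and Chd3, against 2.42% of all genes. DESeq2 called 1 member, Kdm6a (DESeq2 FDR = 0.00679), against 0.201% of all genes. Kdm6a (UTX), an X-linked H3K27 demethylase known to escape X inactivation, was named after its values were seen.

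Kdm6a was read at 50.4, 48.1 and 37.3 CPM in the BAPN females, 56.5 and 51.9 CPM in the Vehicle females, 29.2 CPM in the BAPN male, and 29.7 and 32.5 CPM in the Vehicle males. All 3 males were below all 5 females. The log2 difference of males from females was -0.73 (SE 0.14, edgeR unadjusted p = 0.000671, edgeR FDR = 0.77), and between -0.80 and -0.68 in all alternative fits. Between BAPN and Vehicle the same gene did not differ beyond its spread (log2 fold change -0.05, SE 0.25, edgeR FDR = 0.917).

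**Figure D4:**
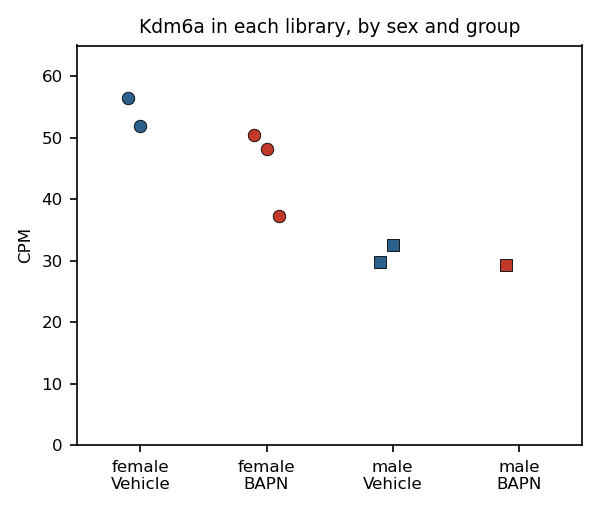
CPM of Kdm6a in each library by sex and group (vertical axis from 0; circles: females, squares: males; 1 point per library). Males lie between 29.2 and 32.5 CPM and females between 37.3 and 56.5 CPM.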

How the data were processed

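Bulk RNA from outflow veins of 8 rats (4 BAPN, 4 Vehicle) was sequenced after ribosomal RNA depletion with a stranded kit. The authors deposited raw counts of reads per gene, without normalization, for 32623 rat genes in each library. The submitters' processing notes name bcl2fastq 2.17, Trim Galore and STAR. The counting tool, its strand setting and the genome build are not given in the sources used here, so reads from overlapping, antisense or near-identical genes may not be told apart, and no gene coordinates are given other than those of the RefSeq GRCr8 promoter table.

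Groups and sex were taken from the sample labels. No pair of libraries of a group agreed within sampling noise (chi-square per degree of freedom of 58.44 to 268), so all 8 were used as separate replicates. Genes with at least 80 reads in total were tested (14930) with edgeR 4.0.16 in R 4.3.3, with TMM factors and a quasi-likelihood test of treatment without covariates. The Benjamini-Hochberg adjustment (FDR) ran over these genes, and standard errors are from limma 3.58.1 (voom). CPM values use TMM-scaled library sizes. The study's own filter, a base mean of at least 100, was an alternative, as were DESeq2 1.42.0, limma voom, other scalings and filters, equal totals, a sex term, a block for the replicate number, a fit to females alone and fits that each dropped 1 library. The steps were tested on simulated data.

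The members, the role and partner lists and the tests were chosen with earlier results of these data known. Named with values were Arid1b, the member with the highest mean CPM and that with the largest fold change in each role, every called member, and the called partner with the largest fold change in each list. Kmt2b, Kmt2c, Setd1a, Nsd2, Kat5, Kdm6a, Smarca1, Smarca4, Smarcb1, the ratios and the partners Brd7, Wdr5, Eed, Tet3 and Baz1a, and the markers Cd4, Cd8a, Fabp4, Lyz2 and Plin1, were chosen after their values were seen. The partner lists held 174 names, of which 168 were in the files. Rcor1 and Setdb2 each stand for 2 listed genes. The called partner named by this rule in 1 list is not reported here. A list of nuclear RNAs was void, with 1 name in the files. Gene length was not assessed, since the build of the counts is not known.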

Additional observations from a re-analysis of the deposited data

Results flagged for a closer look

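In 78 groups of 4 libraries (the genes chosen by the naming rule and Kdm6a, each in BAPN and in Vehicle), 3 held a library far from the others by Dixon's ratio, where chance alone marks about 1 group in 20. For Kmt5b, BAPN replicate 3 was at 48.67 CPM while the other BAPN libraries were at 59.79 to 60.13 CPM. For Setd1b, Vehicle replicate 2 was at 37.19 CPM and the other Vehicle libraries at 42.47 to 43.33 CPM. For Kmt2d, Vehicle replicate 1 was at 206.1 CPM and the others at 156.5 to 161.9 CPM. Without that library the edgeR FDR of Kmt2d was 0.0563.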

How the results depend on the processing

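All 12 calls were kept with DESeq2, limma voom, 3 other scalings, 2 other filters and equal totals, and 11 of them without a filter, where Chd6 was lost. The number of members called lower, 11 in the report, was 22 with DESeq2, 4 with sex as a covariate and 0 among females alone, and 1 to 13 when each library was left out in turn. The share of all genes called lower, 6.56% in the report, was 12.5%, 2.63%, 0.375% and 1.31 to 8.17% in the same fits. With the base mean filter 16 members and 9.25% of all genes were called lower, Arid5b, Chd3, Kat6a and Kdm2a among the members added (edgeR FDR 0.0409 to 0.0484). The number of members called higher, 1 in the report, was 2 with DESeq2, 0 among females alone, and 1 in every fit without a library. The median log2 fold change of the members was -0.23 with library totals only, where that over all genes was -0.06, and -0.18 to -0.13 with a library left out. Of the partner genes, 19 lower and 7 higher in the report, 10 were lower and 1 higher with sex as a covariate, 28 were lower and 13 higher with DESeq2, and 4 to 15 were lower and 0 to 6 higher with a library left out, the fewest without Vehicle replicate 1. For sex, DESeq2 called 1 member and edgeR 0. The log2 fold change of Setd2 was 0.003 without a filter and with equal totals, 0.013 with sex as a covariate, 0.034 among females, 0.016 without BAPN replicate 3 and -0.046 to 0.054 when each library was left out, highest without Vehicle replicate 4. That of Arid4a was -0.17 among females and -0.025 (without BAPN replicate 4) to 0.219 (without Vehicle replicate 1) when each library was left out. The cause of these shifts was not tested, and some of the fits also had fewer samples.

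The replicate numbers of the labels did not pair the libraries, since the deviations of same-numbered libraries correlated at 0.029, -0.135, 0.146 and -0.086. With the replicate number as a block, 4 members were called lower (Kmt2a, Nsd1, Setd1b and Setd7) and 0 higher, with 2.38% of all genes called (1.55% lower), and the 8 members whose calls were lost kept their direction (log2 fold change of Arid2 -0.76 and of Smarca5 0.61).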
